A study of Mus musculus with 2 samples.

Results

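Cox4i2, Cox4i1, Ndufa4l2, Ndufa4, Higd1a, Bnip3 and Bnip3l are 7 of the 31053 genes counted in mouse retinal cells, and they were picked by symbol, with earlier UMI counts of the same 2 libraries known. They form 2 pairs of a hypoxic and a normal subunit form (Cox4i2 with Cox4i1, Ndufa4l2 with Ndufa4), a small inner membrane protein (Higd1a) and a pair of mitophagy receptors (Bnip3 and Bnip3l). The values that led to their choice were the differences between the 2 libraries given here, so all of these are a description and none is a test. The first library held cells of wild type C57BL/6 mice with oxygen-induced retinopathy (OIR), in which pups were kept in 75% oxygen from postnatal day 7 to 12 and then in room air until day 17. The second held cells of wild type C57BL/6 control mice of the same age. In both, the retinas of 6 mice were pooled, digested with papain, and passed over magnetic beads against CD11b, an integrin chain carried by microglia and blood-derived phagocytes. Each group is thus 1 library, with no replicate, and a difference between the libraries cannot be told apart from a difference between the groups.

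In OIR the high oxygen stops the growth of retinal vessels, and on return to room air the inner retina, whose vessels are missing, becomes short of oxygen. Cells sense this through the hypoxia-inducible factors (HIF), which bind DNA at a short core motif and raise the transcription of genes for glycolysis, vessel growth and mitochondrial adjustment. Complex IV, cytochrome c oxidase, passes electrons to oxygen. Cox4i1 is its ordinary subunit 4 and Cox4i2 the alternative form, which in cultured mammalian cells is induced by HIF and makes the enzyme work better at low oxygen. Ndufa4 was first assigned to complex I and is now counted as a subunit of complex IV, and Ndufa4l2 is a HIF-induced relative that lowers complex I activity. Higd1a is a hypoxia-induced protein that associates with complex IV. Bnip3 and Bnip3l, also known as Nix, sit in the outer mitochondrial membrane and bind LC3 proteins, which hands the mitochondrion to the autophagosome.

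The 7 genes lie on 7 chromosomes of build mm10: Cox4i2 at chr2:152754173-152765037, Cox4i1 at chr8:120668222-120674207, Ndufa4l2 at chr10:127514967-127517154, Ndufa4 at chr6:11900292-11907497, Higd1a at chr9:121848563-121858362, Bnip3 at chr7:138890836-138909519 and Bnip3l at chr14:66985239-67008877. Promoters of 3 of the 7 were in the reference, and they are shown because they set 2 genes that were higher in OIR in all 5 main classes of cells (Bnip3 and Higd1a) beside a normal subunit form (Ndufa4). Each runs from 250 bases before to 50 after the RefSeq start in build GRCm38.p6, on the minus strand: chr7:138909457-138909756 for Bnip3, chr9:121857747-121858046 for Higd1a and chr6:11907401-11907700 for Ndufa4. Capitals mark ACGTG and GCGTG, the letters of the HIF core motif, read on either strand.
Bnip3: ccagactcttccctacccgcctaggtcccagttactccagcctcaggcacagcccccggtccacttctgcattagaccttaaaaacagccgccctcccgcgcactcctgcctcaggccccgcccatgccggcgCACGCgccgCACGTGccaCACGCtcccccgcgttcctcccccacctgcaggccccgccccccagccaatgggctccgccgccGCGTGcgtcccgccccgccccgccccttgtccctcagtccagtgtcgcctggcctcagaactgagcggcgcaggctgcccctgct
Higd1a: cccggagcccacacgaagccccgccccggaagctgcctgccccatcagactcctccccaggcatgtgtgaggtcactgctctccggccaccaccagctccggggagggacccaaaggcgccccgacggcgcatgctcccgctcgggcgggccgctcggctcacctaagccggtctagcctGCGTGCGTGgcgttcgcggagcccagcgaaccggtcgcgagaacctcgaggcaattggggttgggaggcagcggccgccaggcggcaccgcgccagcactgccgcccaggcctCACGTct
Ndufa4: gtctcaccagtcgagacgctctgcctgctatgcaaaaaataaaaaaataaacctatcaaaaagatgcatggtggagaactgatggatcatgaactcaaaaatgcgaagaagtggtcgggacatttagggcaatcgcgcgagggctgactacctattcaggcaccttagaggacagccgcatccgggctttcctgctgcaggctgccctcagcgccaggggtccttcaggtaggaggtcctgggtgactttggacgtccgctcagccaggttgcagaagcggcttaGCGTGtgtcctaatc
The Bnip3 window held 5 matches, between 117 and 35 bases before the start, of which an overlapping pair reads CACGTG on the 2 strands. The Higd1a window held 3 matches, of which 2 overlap, and the Ndufa4 window held 1, which lies 36 bases after the start. Among 32851 promoters of the same length, 19.6% held ACGTG, 32.4% held GCGTG and 43.8% held either, so such matches are common.

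The OIR library held 7283 barcodes and the control library 10826, with 49773742 and 50081145 UMIs in all. After filters on genes, mitochondrial UMIs and doublets, 6132 OIR cells and 8585 control cells remained, with medians of 2828.5 and 1648 UMIs. Despite the beads, most cells were not microglia: 10.7% of OIR cells and 9.98% of control cells were microglia-like, and rod-like cells made up 58.3% and 78.1%. A minimum of 200 cells per library was met by 3 further classes, cone-like (590 OIR and 274 control cells), bipolar-like (494 and 287) and Müller glia-like (435 and 304), named for the radial glia that span the retina. The libraries shared 89 barcodes, carried by 70 of the OIR cells and 42 of the control cells used. RNA of the abundant rods, followed by the rod transducin gene Gnat1, was found in every class. In cone-like cells Gnat1 stood at 69.9% of its rod-like level in OIR and 87.3% in control. In Müller glia-like cells it stood at 62.5% and 51.4%, in bipolar-like cells at 11.2% and 12.1%, and in microglia-like cells at 6.13% and 4.59%. The levels below are not corrected for this rod RNA. Müller glia-like cells also differed in mitochondrial RNA, with a median of 5.23% mitochondrial UMIs in OIR and 7.17% in control. Levels are UMIs of a gene per 1000000 UMIs of the class (CPM), with 95% intervals that cover counting error only.

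In OIR, Ndufa4l2 in Müller glia-like cells, Cox4i2 in bipolar-like cells and Bnip3 in microglia-like cells stood 19.2-fold, 16.1-fold and 7.64-fold above control, while Cox4i2 in Müller glia-like cells was at about the same high level in both libraries. Higd1a and Bnip3 were higher in OIR in all 5 classes, by 1.27 to 3.81-fold and by 1.94 to 7.64-fold. The cone-like levels are not corrected for rod RNA, so they do not stand apart from the rod-like ones. The normal forms Cox4i1 and Ndufa4 were within 1.42-fold of control in each whole class, though not in every subset of its cells. Among the classes where a hypoxic form exceeded 100 CPM, Ndufa4l2 was thus far above control in Müller glia-like cells and Cox4i2 in bipolar-like cells.

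**Figure D1:**
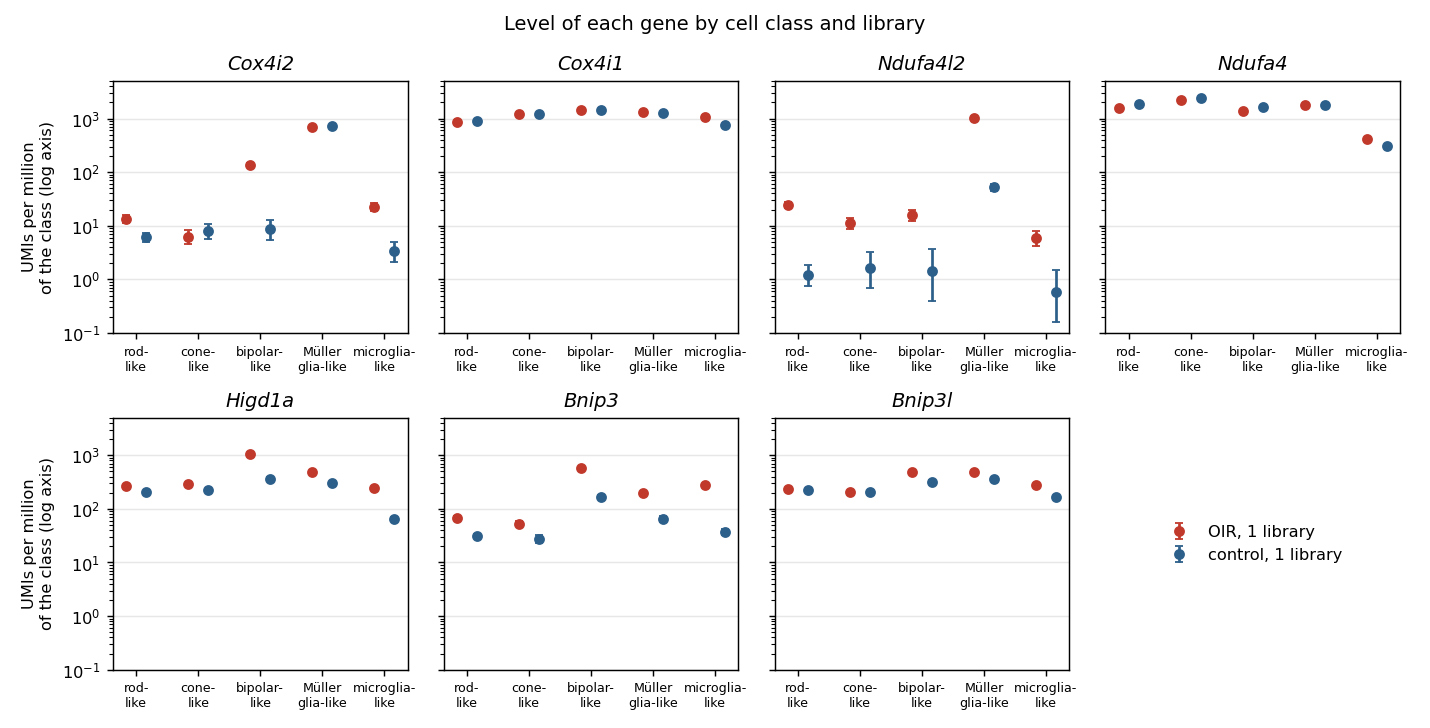
Level in CPM (log axis) for each of the 7 genes in 5 cell classes, OIR (red, left) and control (blue, right), 1 library each, with 95% counting intervals. Ndufa4l2 reached 1014 CPM in OIR Müller glia-like cells against 52.7 in control, and Cox4i2 reached 139 CPM in OIR bipolar-like cells against 8.60 in control.

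Among the 5 classes, Ndufa4l2 was highest in Müller glia-like cells in both libraries. OIR Müller glia-like cells held 5895 UMIs of it, 1014 CPM (988 to 1040), and control Müller glia-like cells 176 UMIs, 52.7 CPM (45.2 to 61.1). The log2 ratio was 4.27 (4.05 to 4.49). Its partner Ndufa4 had 1794 CPM in OIR and 1754 CPM in control Müller glia-like cells, a log2 ratio of 0.03 (-0.01 to 0.08). Ndufa4l2 therefore took 36.1% of the UMIs of the pair in OIR (35.4 to 36.8) and 2.92% in control (2.51 to 3.37). A UMI counts a captured molecule, so no scaling by length was applied, and the capture of the 2 transcripts may differ. Rod-like cells held Ndufa4 at 1603 CPM in OIR and 1861 CPM in control. With the rod RNA in Müller glia-like cells, part of their Ndufa4 may come from rods, and the shares are not corrected for this.

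The Müller glia-like difference was also seen cell by cell. After each cell was thinned to 1500 UMIs, 63.4% of 396 OIR cells (58.4 to 68.1) and 7.67% of 287 control cells (4.87 to 11.4) held an Ndufa4l2 UMI, with 39 OIR and 17 control cells too shallow to use. Unthinned, the shares were 84.4% and 24.7%, at median depths of 10561 and 9040 UMIs. The lowest thinned shares elsewhere were 1.20% in OIR cone-like cells, at a median depth of 10342 UMIs, and 0 in control, found in all 273 cone-like, 285 bipolar-like and 799 microglia-like cells. For the 799 microglia-like cells, at a median of 6585 UMIs, a count of 0 allows a share of up to 0.375%, taking 3 counts as the limit.

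Within each stratum of mitochondrial UMIs the direction was the same, but the size was not. Among Müller glia-like cells above 5% mitochondrial UMIs, Ndufa4l2 had 846 CPM in 245 OIR cells and 41.0 CPM in 264 control cells, a log2 ratio of 4.36. Among those at or under 5%, it had 1242 CPM in 190 OIR cells and 174 CPM in 40 control cells, a log2 ratio of 2.84 (2.44 to 3.27). In the same stratum Ndufa4 was not level either, with 1621 CPM in OIR and 929 CPM in control, a log2 ratio of 0.80 (0.63 to 0.98), while above 5% it had 1922 and 1834 CPM. In these 40 control cells, 2 cells held 30 and 11 of the 51 Ndufa4l2 UMIs, and the rest held 10. With at least 1000 genes also asked for, 160 OIR and 33 control cells were left and the log2 ratio was 2.76 for Ndufa4l2.

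Pericytes, the wall cells of capillaries, are another retinal source of Ndufa4l2 and Cox4i2 in mouse. The 8 pericyte markers summed to 65.3 CPM in OIR and 72.8 CPM in control Müller glia-like cells, with Kcnj8 and Abcc9 at 0 in both. Rgs5, another of the 8, had 10.5 CPM in OIR and 0.898 CPM in control. Of 3 astrocyte markers, Pax2 had 6 UMIs in OIR and 0 in control, while Gfap, which Müller glia also switch on under stress, had 139 and 8.68 CPM. The summed level of the 8 Müller glia markers was itself lower in OIR, 7107 against 13872 CPM. The part of these differences in the Ndufa4l2 result was not tested.

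In the other 4 classes Ndufa4l2 was scarce, at no more than 2.41% of the Müller glia-like level in OIR and 3.09% in control. In rod-like cells it had 252 UMIs, 24.4 CPM, in OIR and 21 UMIs, 1.20 CPM, in control, a log2 ratio of 4.35 (3.70 to 5.06). The rod-like levels are 2.41% of the Müller glia-like level in OIR and 2.28% in control. The Müller glia genes Rlbp1, Glul, Aqp4 and Sox9 stood in rod-like cells at 0.900% to 2.40% of their Müller glia-like level in OIR and 0.350% to 1.03% in control. In rod-like cells themselves they had 16.6, 62.6, 1.55 and 4.07 CPM in OIR and 17.4, 64.1, 1.83 and 1.60 CPM in control. Their Müller glia-like levels, by which these are divided, were 914, 2606, 172 and 441 CPM in OIR and 2338, 6203, 509 and 458 CPM in control. Of the 252 OIR UMIs, 167 lay in the deepest rod-like cluster, where Ndufa4l2 had 104 CPM in 153 OIR cells and 2.22 CPM in 239 control cells. There it stood at 10.3% of the OIR Müller glia-like level, and the 4 Müller glia genes at 1.56% to 4.57%. Without that cluster the odds of Ndufa4l2 to Ndufa4 in rod-like cells were 3.54 (log2) above control rather than 4.56. Ndufa4l2 had 72 UMIs in OIR and 4 in control bipolar-like cells, 80 in OIR and 8 in control cone-like cells, and 39 in OIR and 4 in control microglia-like cells. The OIR levels are 1.55%, 1.09% and 0.575% of the OIR Müller glia-like level. The 4 Müller glia genes stood there at 0.620% to 8.54% in bipolar-like, 0.240% to 1.51% in cone-like and 0.136% to 17.5% in microglia-like cells. In cone-like and microglia-like cells only Glul, at 1.51% and 17.5%, stood above Ndufa4l2. The next gene, Rlbp1, was at 0.679% and 0.442%. Whether the Ndufa4l2 UMIs of these classes are free RNA was not tested, and no difference is read from them. In OIR the order of the classes was Müller glia-like, rod-like, bipolar-like, cone-like and microglia-like, with bipolar-like and cone-like not apart beyond their intervals. In control the 4 lower classes had overlapping intervals, between 0.589 and 1.63 CPM.

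**Figure D2:**
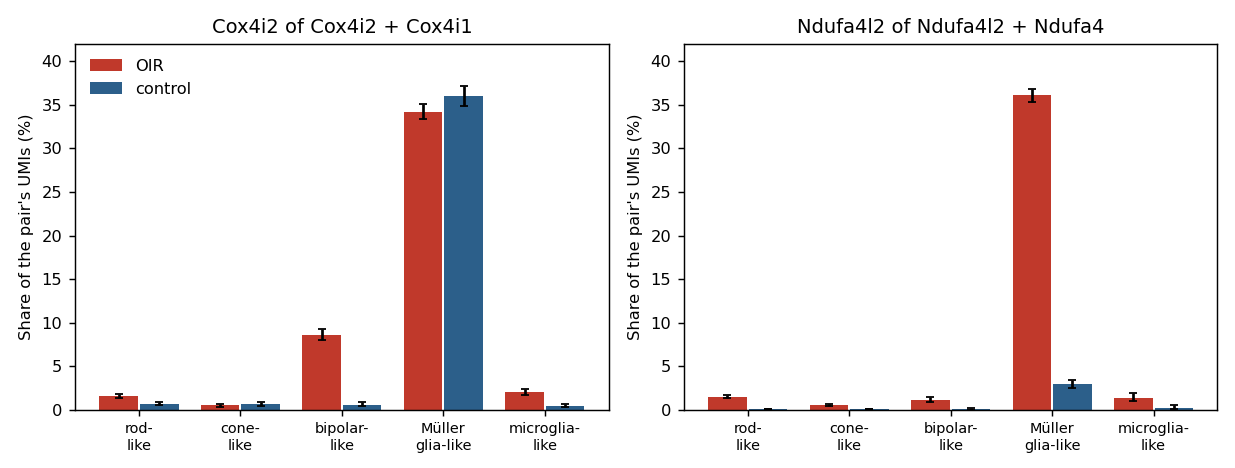
Share of the pair's UMIs taken by the hypoxic form (percent, bars from 0) in 5 cell classes, OIR (red, left) and control (blue, right), with 95% counting intervals. Ndufa4l2 took 36.1% against 2.92% in Müller glia-like cells, where Cox4i2 took 34.2% against 36.0%, and Cox4i2 took 8.63% against 0.587% in bipolar-like cells.

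Cox4i2 was high in Müller glia-like cells of both libraries. It had 3985 UMIs, 685 CPM (664 to 707), in OIR and 2411 UMIs, 722 CPM (693 to 751), in control, a log2 ratio of -0.08 (-0.15 to -0.002). The sign of this small difference turned with 2 other processing choices, thinning (0.15) and finer clusters (0.06), and without the shared barcodes (0.01). Within strata of mitochondrial UMIs the log2 ratio was -0.12 (-0.32 to 0.07) at or under 5% and -0.19 (-0.28 to -0.10) above 5%. Cox4i1 had 1318 CPM in OIR and 1284 CPM in control, a log2 ratio of 0.04 (-0.02 to 0.09). Cox4i2 took 34.2% of the Cox4 UMIs in OIR (33.3 to 35.1) and 36.0% in control (34.8 to 37.1). Rod-like cells held Cox4i1 at 859.6 CPM in OIR and 890.8 CPM in control, and these shares are not corrected for rod RNA either. Of thinned Müller glia-like cells, 62.4% in OIR and 62.0% in control held a Cox4i2 UMI, beside 63.4% and 7.67% for Ndufa4l2.

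In bipolar-like cells, the interneurons that receive the signal of the photoreceptors, Cox4i2 had 637 UMIs, 139 CPM (128 to 150), in OIR and 24 UMIs, 8.60 CPM (5.51 to 12.8), in control. The log2 ratio was 4.01 (3.43 to 4.67). Cox4i1 had 1470 CPM in OIR and 1455 CPM in control bipolar-like cells, a log2 ratio of 0.02 (-0.04 to 0.07). Cox4i2 took 8.63% of the Cox4 UMIs in OIR (7.99 to 9.29) and 0.587% in control (0.377 to 0.873). Of thinned bipolar-like cells, 17.6% in OIR (14.3 to 21.3) and 0.702% in control (0.0851 to 2.51) held a Cox4i2 UMI, and unthinned 44.9% and 5.57% did, at median depths of 6364.5 and 7275 UMIs. The lowest thinned shares elsewhere were 0.342% in OIR cone-like cells and 0.408% in control rod-like cells, at median depths of 10342 and 1401 UMIs.

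Both bipolar-like clusters showed the difference. In the cluster led by Vstm2b, Car8 and Pcp2, Cox4i2 had 221 UMIs, 174 CPM, in 225 OIR cells and 1 UMI, 2.42 CPM, in 65 control cells. In the cluster led by Scgn, Vsx1 and Cck, it had 416 UMIs, 125 CPM, in 269 OIR cells and 23 UMIs, 9.67 CPM, in 222 control cells. Relative to the OIR Müller glia-like level, Cox4i2 in OIR bipolar-like cells stood at 20.3%, Rlbp1 at 0.620%, Glul at 3.15%, Aqp4 at 5.56% and Sox9 at 8.54%. Relative to the control Müller glia-like level, the same genes in control bipolar-like cells stood at 1.19%, 0.352%, 1.36%, 0.915% and 6.18%. The part of Müller glia RNA in the Cox4i2 result was not tested. The 8 pericyte markers summed to 2.61 CPM in OIR and 2.87 CPM in control bipolar-like cells.

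Markers of other retinal neurons moved with the library in bipolar-like cells. The 4 horizontal cell markers summed to 242 CPM in OIR and 26.9 CPM in control, where Onecut1 and Lhx1 were at 0. The 6 ganglion cell markers summed to 103 CPM in OIR and 4.66 CPM in control, where Rbpms, Pou4f1 and Slc17a6 were at 0. Almost all of these UMIs lay in the Scgn-led cluster, which had 332 CPM of the horizontal markers in OIR and 30.7 CPM in control. The Pcp2-led cluster had 7.11 CPM in OIR and 4.83 CPM in control, and at most 1 UMI of the ganglion markers in either library. In the 419 OIR and 250 control bipolar-like cells with no UMI of these 10 markers, Cox4i2 had 158 CPM in OIR and 8.23 CPM in control, a log2 ratio of 4.26 (3.61 to 5.01). Higd1a and Bnip3 had log2 ratios of 1.61 and 1.94 in the same cells. Over all bipolar-like cells the log2 ratios were 4.01 for Cox4i2, 1.53 for Higd1a and 1.80 for Bnip3. A cell with no UMI of these markers may still hold RNA of such neurons, whose part in the results was not tested. The 5 erythroid markers summed to 92.2 CPM in OIR and 5.73 CPM in control bipolar-like cells, and their part in the results was not tested.

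Cox4i2 was lower in the remaining classes. In microglia-like cells it had 151 UMIs, 22.6 CPM, in OIR and 23 UMIs, 3.39 CPM, in control, a log2 ratio of 2.74 (2.10 to 3.44). That is 3.29% of the OIR and 0.469% of the control Müller glia-like level. Of the 4 Müller glia genes, Glul stood at 17.5% in OIR and 12.2% in control. Rlbp1, Aqp4 and Sox9 stood at 0.442%, 0.347% and 0.136% in OIR, and at 0.787%, 0.318% and 0.354% in control. The part of Müller glia RNA in the microglia-like Cox4i2 UMIs was not tested. With doublet calls kept, the odds of Cox4i2 to Cox4i1 in microglia-like cells were 0.59 (log2) above control rather than 2.24. In rod-like cells it had 13.5 CPM in OIR and 6.18 CPM in control, and in cone-like cells 6.21 and 7.93 CPM (45 and 39 UMIs). The direction in cone-like cells depended on which cells were counted as cone-like. The odds of Cox4i2 to Cox4i1 were 0.36 (log2) below control. They were 1.93 above it with coarser clusters and 1.79 above it when each cell was named by its marker score. With coarser clusters the class held 770 OIR and 333 control cells. An unnamed cluster led by Greb1, Serpina3n and Ndufa4l2, with 181 OIR and 60 control cells, was then no longer separate. The OIR levels in rod-like and cone-like cells are 1.97% and 0.906% of the OIR Müller glia-like level. In OIR no neighbours in the order Müller glia-like, bipolar-like, microglia-like, rod-like and cone-like had overlapping intervals. In control the 4 classes below Müller glia-like cells lay between 3.39 and 8.60 CPM, and each overlapped its neighbour.

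Over whole classes the 2 normal forms differed most in microglia-like cells. Cox4i1 had 1077 CPM in OIR and 761 CPM in control microglia-like cells, 859.6 and 890.8 CPM in rod-like cells, and 1218 and 1217 CPM in cone-like cells. Only in microglia-like cells was the log2 ratio above 0.1, at 0.50 (0.45 to 0.55). Ndufa4 had 416 CPM in OIR and 303 CPM in control microglia-like cells, 1382 and 1615 CPM in bipolar-like cells, 1603 and 1861 CPM in rod-like cells, and 2204 and 2365 CPM in cone-like cells. Its log2 ratio was 0.46 in microglia-like cells (0.38 to 0.54), -0.22 in bipolar-like cells (-0.28 to -0.17) and -0.22 in rod-like cells (-0.24 to -0.19). Within single microglia-like clusters, some with few cells in a library, the ratios ran from 0.03 to 0.50 for Cox4i1 and from -0.40 to 0.69 for Ndufa4. In the rod-like clusters other than the deepest they ran from -0.51 to -0.20 and from -0.71 to -0.31. The part of the unlike cluster make-up of the libraries in the class values was not tested. Cox4i1 overlaps Emc8 and Ndufa4l2 overlaps Shmt2 on the opposite strand, and whether the counting used strand is not given in the sources used here. Gm47112 and Gm45507 lie antisense to Higd1a and Bnip3 and had at most 16 and 2 UMIs in a class. Shmt2 had 24.4 CPM in OIR and 22.8 CPM in control Müller glia-like cells, and 27.2 CPM in OIR and 8.60 CPM in control bipolar-like cells.

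**Figure D3:**
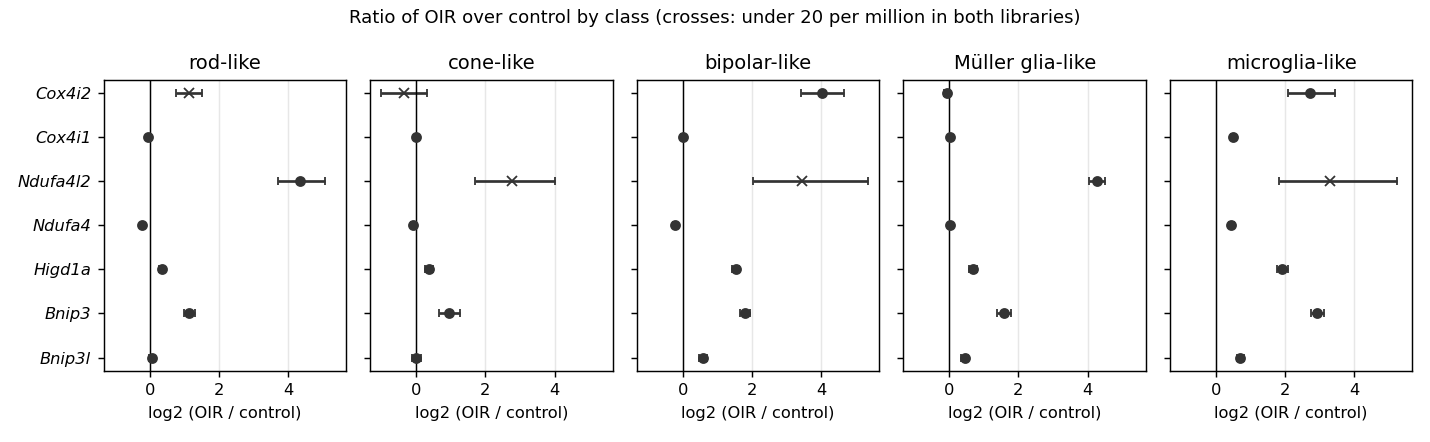
Log2 ratio of OIR over control for the 7 genes in each class, with 95% counting intervals, and crosses for genes under 20 CPM in both libraries. Over whole classes other than microglia-like cells, Cox4i1 lies near 0 and Ndufa4 between -0.22 and 0.03. In microglia-like cells they lie at 0.50 and 0.46. Bnip3 lies to the right of 0 in every class, from 0.96 to 2.93.

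Higd1a was highest in bipolar-like cells of both libraries. It had 4805 UMIs, 1047 CPM (1017 to 1077), in OIR bipolar-like cells and 1010 UMIs, 362 CPM (340 to 385), in control, a log2 ratio of 1.53 (1.43 to 1.63). In microglia-like cells it had 246 CPM in OIR and 64.5 CPM in control, a log2 ratio of 1.93 (1.78 to 2.09). In Müller glia-like cells it had 479.6 CPM in OIR and 297 CPM in control, a log2 ratio of 0.69 (0.59 to 0.80). The photoreceptors stood closest to control, with 262 CPM in OIR and 206 CPM in control rod-like cells, 287 CPM in OIR and 221 CPM in control cone-like cells, and log2 ratios of 0.34 and 0.37. In OIR, rod-like and microglia-like cells overlapped at the low end of the order. In control, microglia-like cells were below every other class, and rod-like and cone-like cells overlapped.

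Bnip3 had its highest level in bipolar-like cells and its largest ratio in microglia-like cells. Bipolar-like cells had 2662 UMIs, 579.9 CPM (558 to 602), in OIR and 464 UMIs, 166 CPM (151 to 182), in control, a log2 ratio of 1.80 (1.66 to 1.95). For microglia-like cells the counts were 1888 UMIs, 282 CPM (269.7 to 295), in OIR and 251 UMIs, 37.0 CPM (32.5 to 41.8), in control, a log2 ratio of 2.93 (2.74 to 3.13). Müller glia-like cells had 196 CPM in OIR and 65.6 CPM in control, a log2 ratio of 1.58 (1.37 to 1.79). Rod-like cells had 68.4 CPM in OIR and 30.9 CPM in control, and cone-like cells 53.0 and 27.2 CPM, with log2 ratios of 1.15 (0.98 to 1.31) and 0.96 (0.67 to 1.25). In control, rod-like cells overlapped both microglia-like and cone-like cells, which did not overlap each other, and in OIR no neighbours overlapped. Of thinned cells, 22.7% of OIR and 5.51% of control microglia-like cells held a Bnip3 UMI, as did 53.3% and 25.6% of bipolar-like and 26.3% and 6.97% of Müller glia-like cells. Unthinned these shares were 49.8% and 23.9%, 84.2% and 66.2%, and 67.6% and 45.4%. The lowest thinned shares were 6.16% in OIR and 5.13% in control, both in cone-like cells, so the control microglia-like share was at the level of that class.

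Bnip3l, the second receptor, differed less. It had 489 CPM in OIR and 357 CPM in control Müller glia-like cells, 485 and 322 CPM in bipolar-like cells, and 273 and 166 CPM in microglia-like cells, with log2 ratios of 0.45, 0.59 and 0.72. In rod-like cells it had 231 CPM in OIR and 220.4 CPM in control, and in cone-like cells 204 and 203 CPM, with intervals of the ratio that include 0. In microglia-like cells 26.2% of thinned OIR cells and 23.5% of thinned control cells held a Bnip3l UMI, and 63.6% and 62.7% did before thinning. Müller glia-like and bipolar-like cells overlapped at the top of the order in both libraries.

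Microglia-like cells of the 2 libraries lay largely in different clusters. The cluster led by Mmp12, Hmox1 and Spp1 held 207 OIR and 7 control cells, and the cluster led by Ube2c, Cst7 and Birc5 held 145 and 2. Bnip3 had 355 CPM (337 to 374) in the 207 OIR cells and 88.3 CPM (38.1 to 174) in the 7 control cells of the Mmp12-led cluster, and 330 CPM (281 to 384) and 0 UMIs in the Ube2c-led cluster. The clusters with most control cells were led by Selplg, Tmem119 and P2ry12 (26 OIR and 319 control cells) and by Ccl4, Ccl3 and Il1a (46 and 259). Bnip3 had 64.0 and 62.3 CPM there in OIR and 37.2 and 38.2 CPM in control, with intervals that overlap. The log2 ratios were 0.78 (-0.39 to 1.77) and 0.71 (0.01 to 1.35). Over the 3 of 8 clusters with microglia markers among their leading genes, the log2 ratio was 1.61 for Bnip3 and 1.18 for Higd1a. Over all microglia-like cells it was 2.93 and 1.93. The 3 include a cluster not described here, so 1.61 is not set by the 2 clusters above alone. Within a library, the OIR level thus spanned 34.0 to 355 CPM over the 8 clusters. The homeostatic markers P2ry12 and Tmem119 moved with this, at 519 and 171 CPM in OIR and 1562 and 608 CPM in control microglia-like cells, and their part in the result was not tested.

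Markers of other blood and border cells also moved with the library in microglia-like cells. The 5 erythroid markers summed to 4833 CPM in OIR and 5.45 CPM in control, where Alas2 was at 0. The 7 border macrophage markers summed to 203 CPM in OIR and 39.0 CPM in control, where Lyve1 was at 0, and the 6 monocyte markers to 42.9 and 9.13 CPM. In the 444 OIR and 787 control cells with no UMI of the border macrophage and monocyte markers, Bnip3 had 217 CPM in OIR and 38.2 CPM in control, a log2 ratio of 2.51 (2.29 to 2.73), and Higd1a and Cox4i2 had log2 ratios of 1.66 and 2.63. In the 282 OIR and 820 control cells with no erythroid UMI the 3 genes had log2 ratios of 2.91, 2.08 and 2.72. Over all microglia-like cells the log2 ratios were 2.93, 1.93 and 2.74, the same direction in all 3 genes. Cells with no UMI of these markers may still hold RNA of the other cell types, whose part in the results was not tested.

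**Figure D4:**
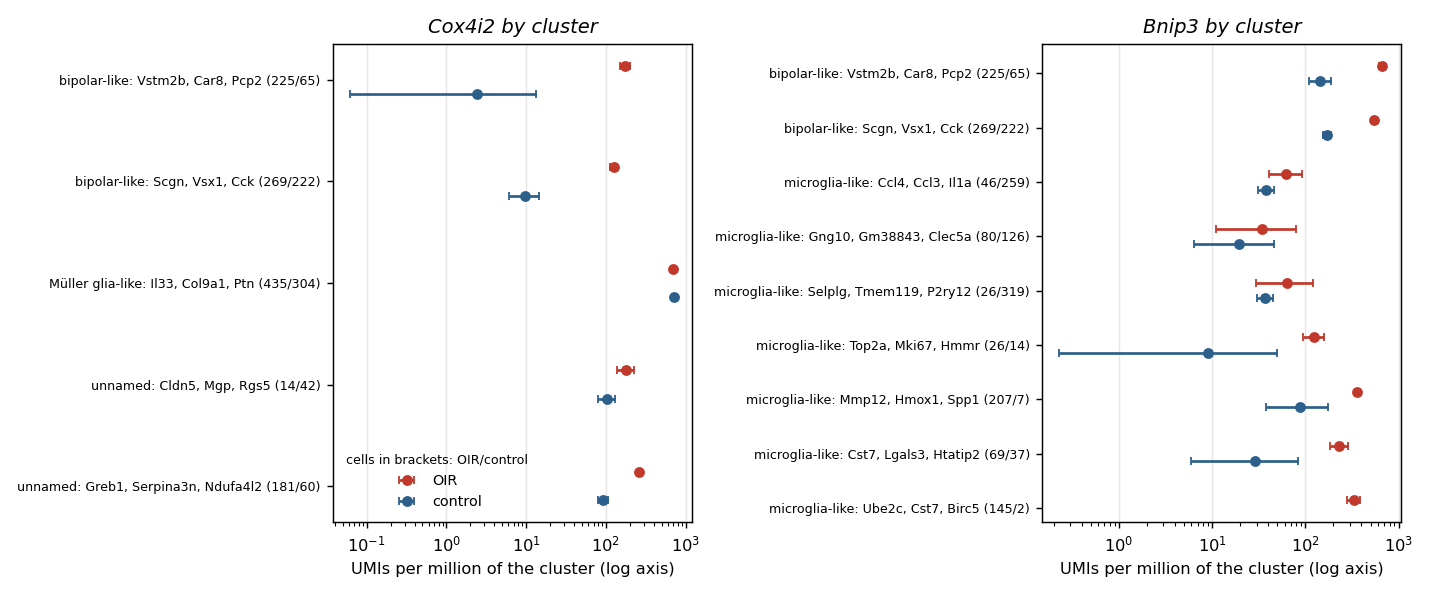
Level in CPM of the cluster (log axis) with 95% counting intervals for Cox4i2 by cluster (left) and Bnip3 in both bipolar-like and 7 of the 8 microglia-like clusters (right), OIR (red, upper) and control (blue, lower), with cells as OIR/control in brackets, and no point where the count was 0. Cox4i2 was at 174 and 125 CPM in the OIR cells of both bipolar-like clusters, against 2.42 and 9.67 in control, and Bnip3 ranged from 34.0 to 355 CPM over the OIR microglia-like clusters.

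Some of the genes were found together in the same cells. Of thinned OIR Müller glia-like cells with an Ndufa4l2 UMI, 35.5% of 251 (29.5 to 41.7) also held a Bnip3 UMI, against 10.3% of 145 without one (5.91 to 16.5). For Cox4i2 the shares were 72.5% and 44.8%. In control the 22 cells with Ndufa4l2 were too few to separate 13.6% from 6.42% for Bnip3. In OIR bipolar-like cells, Cox4i2 was found in 19.5% of cells with Bnip3 and 15.6% of cells without, with overlapping intervals, and Higd1a in 73.9% and 61.3%. In OIR microglia-like cells, Higd1a was found in 37.7% of cells with Bnip3 and 21.0% of cells without. Thinning evens depth but not the share of rod RNA per cell, which was not examined here. Ndufa4l2 was not higher in cells with the reactive glia genes Lcn2 or Serpina3n: the 122 OIR Müller glia-like cells with either had 823 CPM of Ndufa4l2 and the 313 without had 1156 CPM, at median depths of 18534 and 8590 UMIs. This was not particular to Ndufa4l2, as every other member was also lower in the cells with either, Cox4i2 at 558 against 780 CPM. The part of the unlike depth was not tested.

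To set these values against all genes, a gene with at least 20 CPM in a library was counted as apart when the ratio was at least 1.5-fold and its interval excluded 0. In Müller glia-like cells all 7 genes reached 20 CPM and 3 were higher in OIR (Ndufa4l2, Higd1a and Bnip3), beside 6.55% of 6736 genes higher and 9.49% lower. In bipolar-like cells 4 of 6 were higher (Cox4i2, Higd1a, Bnip3 and Bnip3l), beside 4.22% of 7250 genes higher and 6.23% lower. In microglia-like cells the same 4 of 6 were higher, beside 11.7% of 6085 genes higher and 17.8% lower. In rod-like cells 2 of 6 were higher (Ndufa4l2 and Bnip3), beside 3.91% of 6554 genes higher and 1.24% lower, and in cone-like cells 1 of 5 (Bnip3), beside 2.86% of 6530 genes higher and 2.14% lower. No member was lower by this rule in any of the 5 classes. Cox4i2 in bipolar-like and microglia-like cells and Ndufa4l2 in rod-like cells reached 20 CPM through OIR alone, so they had to differ. The members were chosen on this contrast, so nothing is read from the counts against the shares. The median ratio of all genes was within 0.1 of 0 on the log2 scale except in microglia-like cells, where it was -0.12.

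Other complex IV subunits were counted as higher in microglia-like cells, the class with the largest share of all genes higher, and the difference between classes was not tested. Of 12 other subunits, all measured, 9 were higher in OIR microglia-like cells and 0 lower, with a median log2 ratio of 0.73, beside 11.7% of all genes higher and a median of -0.12. These include the nuclear-encoded Cox5a with 320 CPM in OIR and 153 CPM in control (log2 ratio 1.06), Cox7b with 303 and 147 CPM (1.05) and Cox5b with 361 and 186 CPM (0.96). The 3 subunits encoded in the mitochondrial genome, mt-Co1, mt-Co2 and mt-Co3, had log2 ratios of 0.06, 0.08 and -0.04 there. In each of the other 4 classes 0 of the 12 were higher, with medians of -0.12 in rod-like, 0.10 in cone-like, 0.15 in Müller glia-like and -0.01 in bipolar-like cells. mt-Co3 was lower in rod-like cells (5139 CPM in OIR and 7905 CPM in control) and Müller glia-like cells (9263 and 14394 CPM), where the median share of mitochondrial UMIs also differed (1.17% and 2.27% in rod-like cells, 5.23% and 7.17% in Müller glia-like cells).

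Among other alternative or accessory forms, AA467197, another relative of Ndufa4, was seen almost wholly in OIR microglia-like cells. It had 256 UMIs, 38.3 CPM, in OIR microglia-like cells and 0 UMIs in control, at least 86.6-fold higher against a floor of 3 counts in the control class. In the other 4 classes it had at most 3 UMIs in either library. Cox6b2, an alternative subunit 6b, was lower in OIR Müller glia-like cells, 29.2 against 53.3 CPM, a log2 ratio of -0.87. Of the proteins that bind the Cox4i2 promoter in human cells, Chchd2 had 788 CPM in OIR and 474 CPM in control microglia-like cells (log2 ratio 0.73), and Cxxc5 was higher in rod-like (0.67) and cone-like cells (0.69). In bipolar-like cells, where Cox4i2 differed most, Rbpj had 36.4 CPM in OIR and 22.6 CPM in control (0.69), Cxxc5 a log2 ratio of 0.23 and Chchd2 of 0.06.

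Other mitophagy genes were counted by the same rule. Of 10 receptors and adaptors looked at, 7 to 9 were measured in a class, and 0 were lower. In rod-like cells 1 of 7 was higher, beside 3.91% of all genes, and in Müller glia-like cells 1 of 9, beside 6.55%. In microglia-like cells it was 1 of 7, beside 11.7%. In cone-like cells it was 0 of 9, beside 2.86%, and in bipolar-like cells 0 of 8, beside 4.22%. With so few genes, nothing is read from these counts. Sqstm1, the adaptor p62, had 220 CPM in OIR and 82.6 CPM in control microglia-like cells, a log2 ratio of 1.41. Tax1bp1, another adaptor, had 1680 CPM in OIR and 1081 CPM in control rod-like cells (0.64) and 841 and 528 CPM in Müller glia-like cells (0.67). Fundc1, a receptor of hypoxic mitophagy, had 39.6 CPM in OIR and 58.1 CPM in control Müller glia-like cells, a log2 ratio of -0.55. Of the autophagosome genes 3 of 10 were higher in microglia-like cells, beside 11.7% of all genes (Gabarapl1 at 0.82, Wipi1 at 0.70 and Gabarap at 0.63), and 0 of 10 or 11 in each other class. Of genes that follow mitochondrial mass, 1 of 9 was higher in microglia-like cells, near the share of all genes, the outer membrane channel Vdac1 with 230 CPM in OIR and 103 CPM in control (1.16), and 0 of 9 in each other class.

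Other HIF targets were higher in OIR in several classes, and the differences between classes were not tested. In microglia-like cells 11 of 16 measured were higher and 0 lower, beside 11.7% of all genes higher and 17.8% lower, with a median log2 ratio of 1.64. Of the 16, 6 reached 20 CPM in OIR alone and thus had to differ, as did 2 of 15 in bipolar-like, 2 of 14 in Müller glia-like and 1 of 13 in rod-like cells, so these counts and medians are a description. P4ha2, which modifies collagen, had 32.9 CPM in OIR and 1.03 CPM in control, Egln3, an oxygen sensor of HIF, 91.4 and 4.71 CPM, and the vessel growth factor Vegfa 35.4 and 2.95 CPM. In bipolar-like cells 9 of 15 were higher and 0 lower, beside 4.22% and 6.23% of all genes, with a median of 0.76. Egln1, the main oxygen sensor, had 298 CPM in OIR and 98.1 CPM in control, P4ha2 48.4 and 16.5 CPM, and the glycolytic regulator Pfkfb3 26.1 and 10.4 CPM. Among Müller glia-like cells 7 of 14 were higher and 0 lower, beside 6.55% and 9.49%, with a median of 0.58. Adm, a vascular peptide, had 74.1 CPM in OIR and 2.99 CPM in control, the endoplasmic oxidase Ero1l 91.3 and 20.4 CPM, and Pdk1, which keeps pyruvate out of mitochondria, 25.8 and 11.1 CPM. In rod-like cells 1 of 13 was higher, beside 3.91% of all genes, Vegfa with 36.7 CPM in OIR and 11.6 CPM in control, and 0 were lower. In cone-like cells 1 of 12 was higher, beside 2.86% of all genes, Vegfa again with 64.4 and 35.4 CPM, and 1 lower, P4ha1 with 27.9 CPM in OIR and 48.2 CPM in control.

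**Figure D5:**
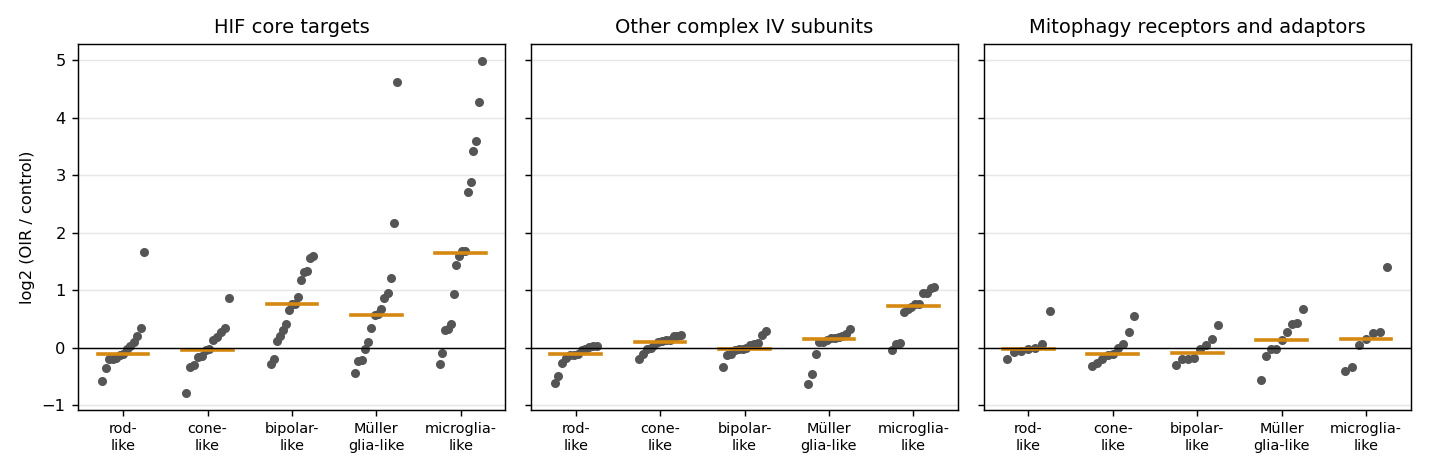
Log2 ratio of OIR over control for each measured gene (points) of 3 lists in 5 classes, with the list's median as a bar. The HIF targets have medians of 1.64 in microglia-like, 0.58 in Müller glia-like and 0.76 in bipolar-like cells, the other complex IV subunits a median of 0.73 in microglia-like cells, and the mitophagy receptors and adaptors medians between -0.11 and 0.15.

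Genes with the pattern most like each of 3 members were sought over the 10 sums of class and library, among 9411 genes, as a description with no test. For Cox4i2 the closest were Rgcc (Pearson r of 0.972), Ndrg2 (0.968), Espn (0.965), Bsg (0.952) and Gprc5b (0.951). Espn, which codes an actin-bundling protein, had 560 CPM in OIR and 793 CPM in control Müller glia-like cells and 57.3 and 2.51 CPM in bipolar-like cells, and Rgcc had 44.9 and 105 CPM and 21.3 and 1.07 CPM in the same classes. For Ndufa4l2 the closest were Fbln1 (0.945), S100a6 (0.928), Tesc (0.925), Gfap (0.921) and Cdh13 (0.914). S100a6, a calcium-binding protein, had 785 CPM in OIR and 87.1 CPM in control Müller glia-like cells. For Bnip3 they were Syce2 (0.963), P4ha2 (0.947), Sec61g (0.933), Fn1 (0.922) and C3 (0.918). The 10 sums share 2 libraries and the rod RNA in each.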

How the data were processed

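Single-cell libraries of OIR and control retina were deposited by the authors as UMI counts per gene and cell, made with Cell Ranger 3.0.2 on build mm10 per the submitters' processing notes; the annotation release is not given in the sources used here. Each group is 1 library, so no test across samples was possible, and intervals are exact 95% binomial or Poisson ones for counting error only. Cells with at least 500 genes and at most 10% mitochondrial UMIs were kept. Scrublet called 0 and 4 doublets by its own threshold, so the highest scores were removed at 0.8% per 1000 cells. Cells of both libraries were clustered together, without the 7 genes, on 2000 variable genes, 30 components and 20 neighbours (Leiden, resolution 1, scanpy 1.11.5). Cells of clusters that best matched microglia, border macrophages, monocytes, neutrophils or dendritic cells were then clustered again on their own, with the same settings. Clusters were named "X-like" from marker lists. UMIs were summed per class and library. The code was tested on simulated data. The members and gene lists were chosen with earlier results of these data known. Genes named in the text are the members, the 3 of each list with the largest ratio in a class, the 5 most like a member, markers, overlapping genes and genes leading clusters; other genes named were chosen after their values were seen. Alternatives covered filters, doublets, clustering, class names, scaling, thinning and thresholds. Some results, a correction for rod RNA among them, are not reported here.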

Additional observations from a re-analysis of the deposited data

Results flagged for a closer look

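The log2 ratio of Cox4i2 was 4.01 in bipolar-like cells and -0.08 in Müller glia-like cells, where it was near 0 and its sign turned with the processing (0.15, 0.057 and 0.0072). Cox4i1 had a log2 ratio of 0.50 in microglia-like cells and -0.05 in rod-like cells, which turned to 0.057 when each cell was named by its marker score. Ndufa4 had a log2 ratio of 0.46 in microglia-like cells and -0.22 in bipolar-like cells. These are ratios of whole classes, and those of single microglia-like and rod-like clusters differed, as given above. With 1 library a group, the differences between classes were not tested.

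A pair of clusters that could not be named, and that the comparisons do not use, also held these transcripts. In the vascular cluster led by Cldn5, Mgp and Rgs5, Cox4i2 had 177 CPM in 14 OIR cells and 102 CPM in 42 control cells. In the cluster led by Greb1, Serpina3n and Ndufa4l2, Cox4i2 had 263 CPM in 181 OIR cells and 91.2 CPM in 60 control cells. This cluster passed the naming rule for cone, Müller glia and rod markers at once. Its median depth was 30544 UMIs, against 10634.5 in the cone-like and 9665 in the Müller glia-like cluster. Whether its cells are doublets or other mixtures was not tested. Ndufa4l2 in that cluster had 380.1 CPM in OIR cells and 8.69 CPM in control cells.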

How the results depend on the processing

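No paired analysis was possible because each group is 1 library. Changing 1 choice at a time, with the filters on genes and mitochondrial UMIs changed together, 71 summary values stayed within their counting interval or 1.5 times the count and 27 moved, and of single-gene ratios 256 stayed, 82 moved and 4 turned sign. Values here are log2, OIR over control, and odds are of the hypoxic to the normal form. Asking for 1000 genes and at most 5% mitochondrial UMIs gave odds of 2.10 for rod-like and -0.34 for Müller glia-like Cox4i2, and 1.90 for Müller glia-like Ndufa4l2. Keeping doublet calls gave 0.59 for microglia-like Cox4i2. Resolution 0.5 gave cone-like odds of 1.93 (Cox4i2) and 5.76 (Ndufa4l2), in a class of 770 OIR and 333 control cells. The unnamed cluster led by Greb1 was not separate at that resolution. Naming each cell by its marker score gave 1.79 and 5.17 and turned the rod-like Cox4i1 ratio to 0.057. Resolution 2 gave 3.75 for Müller glia-like Ndufa4l2 and turned the Müller glia-like Cox4i2 ratio to 0.057. Clustering with the 7 genes gave 0.79 for rod-like Cox4i2. Thinning to 1500 UMIs gave Cox4i2 odds of 1.94 in rod-like, -1.75 in cone-like, 4.88 in bipolar-like, -0.0066 in Müller glia-like and 1.36 in microglia-like cells, and Ndufa4l2 odds of 0.21 in cone-like, 1.40 in bipolar-like and 3.99 in Müller glia-like cells. It turned the Müller glia-like Cox4i2 ratio to 0.15. At 2-fold, listed genes apart numbered 1 in rod-like, 0 in cone-like, 5 in bipolar-like, 3 in Müller glia-like and 15 in microglia-like cells, against 4, 3, 10, 10 and 27 at 1.5-fold.

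Some alternatives were chosen after seeing the data. Cells with no UMI of other classes' markers gave the values reported for bipolar-like and microglia-like cells. Leaving out shared barcodes turned the Müller glia-like Cox4i2 ratio to 0.0072. The bipolar-like cluster led by Pcp2 gave odds of 6.15 for Cox4i2 and at least 0.081 for Ndufa4l2 (7 UMIs in OIR and 0 in control). Without the deepest rod-like cluster, odds were 0.68 for Cox4i2 and 3.54 for Ndufa4l2. Apart from the stated constructions (fewer cells or genes, or a class that takes in another cluster), the causes of these shifts were not tested. Depth limits rod-like cells most, of which 1814 OIR and 3762 control cells fell under 1500 UMIs.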

Other observations

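The vascular cluster led by Cldn5, Mgp and Rgs5, with 14 OIR and 42 control cells, had more Ndufa4l2 in control than the control Müller glia-like cells (52.7 CPM). It had 354 CPM (299 to 418) in OIR and 291 CPM (252 to 334) in control, with intervals that overlap. Bnip3 in the same cluster had 94.9 CPM in OIR and 34.4 CPM in control.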
